A study of Mus musculus with 8 samples.

Results

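Myc and 34 further genes of ribosome biogenesis and nucleotide synthesis were followed in CD4+ T cells sorted from the knee joints of mice with antigen-induced arthritis. The 35 genes were taken by symbol from a table of 24421 gene symbols, and all 35 symbols were found in it. They were picked by symbol, with no cut on measured values but with earlier results of these data known. Slc7a5 knockout cells (4 libraries) were compared with wild-type cells (4 libraries) to ask how T cells in an inflamed joint differ when they lack Slc7a5, a transporter of large neutral amino acids. All 8 libraries came from male mice aged 16 weeks, and both genotypes had arthritis. The labels give neither the allele, the deleted part of Slc7a5 nor the cells in which it was deleted. Whether separate animals gave the libraries is not stated either, so their spread may be partly technical.

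Myc is a transcription factor that T cells induce on antigen receptor signalling and that drives cell growth. With its partner Max it binds E-box DNA and raises the genes that build ribosomes. Ribosome assembly starts in the nucleolus, where RNA polymerase I copies the ribosomal RNA, small nucleolar ribonucleoproteins (snoRNPs) modify it, and separate sets of assembly factors shape the small and the large subunit. Amino acid uptake is known to support Myc protein in activated T cells.

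The knockout libraries held 18837650 to 25853856 counts and the wild-type libraries 21873678 to 36436923. A gene with at least 1 count was found 5221 to 9358 times in knockout and 7957 to 10139 times in wild-type libraries. Knockout replicate 4 stood apart, with the fewest genes and Spearman correlations across genes of 0.489 to 0.544 with the other 7 libraries. Slc7a5 had no counts in the 4 knockout libraries, against 385, 194, 410 and 0 counts in wild-type replicates 1 to 4. The low-count filter of the test below removed Slc7a5. Its adjusted p was 0.364 in edgeR without that filter and 0.0183 in DESeq2. With the pooled knockout libraries set to a floor of 3 counts, Slc7a5 was at least 239-fold lower in knockout, a bound for counting error alone. With 0 counts, the library labelled wild-type replicate 4 is not told apart from knockout by this gene. Without it 0 genes were called, the median log2 fold change of the 33 tested members was 0.29 and the log2 ratio of the summed CPM of the 35, scaled anew over 7 libraries, was 0.28, against 0.24 and 0.26 with all 8 libraries.

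None of the 35 genes passed the test for a difference between the genotypes. The low-count filter kept 33 of them, and the quasi-likelihood test of edgeR, with p-values adjusted over 8489 genes (Benjamini-Hochberg), called 0 of the 33, against 0 of 8489 genes (0%). The smallest adjusted p among the 33 was 0.9999. At an unadjusted p under 0.05 in this edgeR fit there were also 0 of the 33, where 326 of all tested genes (3.84%) stood, 1.87% with higher and 1.97% with lower levels in knockout. Under that unadjusted line lay 2 members in DESeq2, 2 in limma voom and 1 with its quality weights. The share of all genes there was not taken, so no reading is drawn from these counts. DESeq2 called 0 of the 35 and 387 of 10659 genes (3.63%), while limma voom called 0 of the 33 and 9 of 8489 genes (0.106%), or 4 genes with quality weights (0.0471%). Levels are given in CPM, counts scaled to the effective size of each library, and a positive log2 fold change means a higher level in knockout. In such bulk libraries fewer cells that use a gene and less RNA per cell cannot be told apart.

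The summed CPM of the 35 genes was 2831, 3246, 2986 and 4164 in knockout replicates 1 to 4, against 2499, 2546, 3123 and 2886 in wild-type replicates 1 to 4. The groups overlapped, and knockout replicate 4 was the highest library. The sum averaged 3307 ± 596 CPM in knockout and 2764 ± 295 CPM in wild type (SD, n = 4 each), a log2 ratio of 0.26, which was 0.11 without knockout replicate 4, with the scaling recomputed over the other 7 libraries. Ncl, which has the most counts, made up 8.22% to 24.8% of the sum in knockout and 24.5% to 30.2% in wild type. Without Ncl the sum was 2716 ± 758 CPM in knockout and 1991 ± 221 CPM in wild type, a log2 ratio of 0.45. Of the 33 tested genes, 18 had higher and 15 lower estimates in knockout, with a median log2 fold change of 0.24, beside a median of −0.12 over all 8489 tested genes. Over the same 33 genes the median was 0.14 with knockout replicate 2 left out, and 0.11 and 0.12 with wild-type replicates 1 and 3 left out in turn. Its sign turned in limma voom (−0.074), with its quality weights (−0.026) and with the replicate number as a block (−0.14). The medians over all tested genes were lower in these fits too, at −1.28, −0.36 and −0.68.

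**Figure D1:**
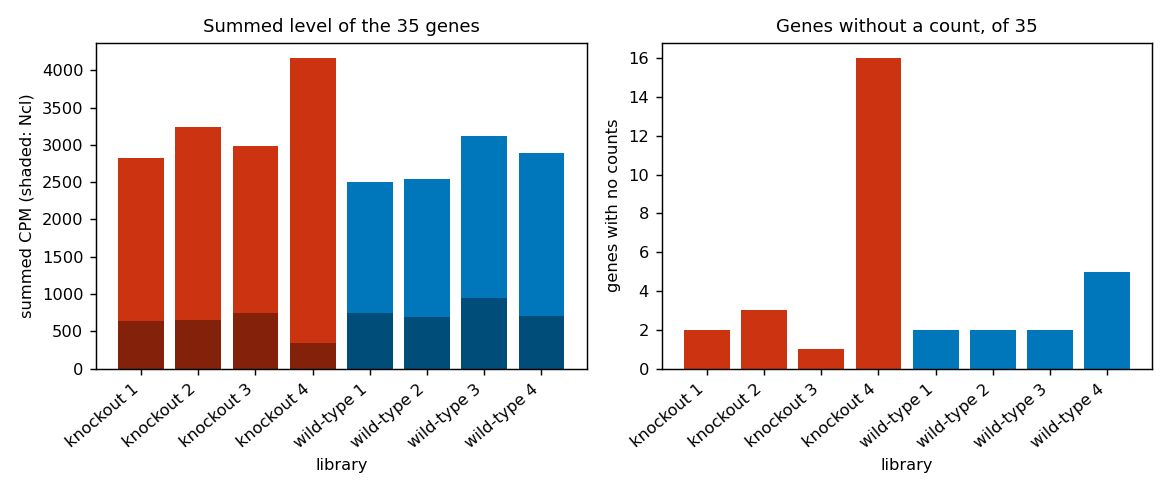
Summed CPM of the 35 genes (left, with the share of Ncl shaded) and the number of the 35 genes without a count (right) in each library, with knockout libraries in red and wild-type libraries in blue. Knockout replicate 4 had the highest sum, 4164 CPM, and also the most genes without a count, 16.

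The members were seen unevenly from library to library. Members without a single count numbered 2, 3, 1 and 16 in knockout replicates 1 to 4, against 2, 2, 2 and 5 in wild-type replicates 1 to 4. Most zeros of knockout thus lay in replicate 4, where 51.5% of the tested members and 45.0% of all tested genes reached 10 counts. In the other knockout libraries 69.7% to 93.9% of the tested members reached 10 counts, and in wild-type libraries 78.8% to 97.0%. For all tested genes these shares were 72.2% to 91.0% and 80.7% to 96.0%. Of the 35 genes 13 had 10 or more counts in all 8 libraries, and none was at 0 throughout a genotype. The share with 10 or more counts in all 8 libraries was 39.4% of the tested members and 34.4% of all tested genes. Knockout replicate 4 was also the library in which 11 of the 35 genes had their highest CPM, more than in any other library. It thus combined missing and very high values, as the map of levels by library shows.

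**Figure D2:**
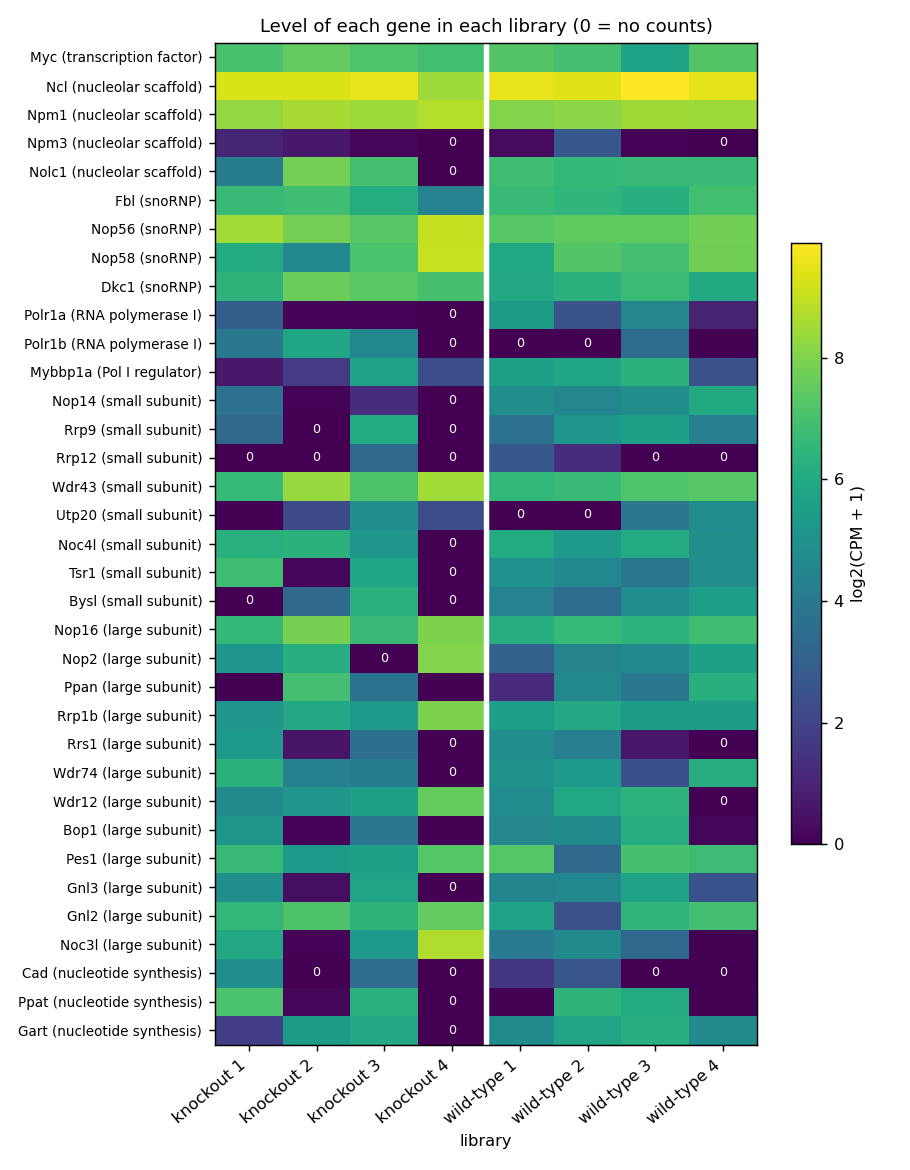
Level of the 35 genes in the 8 libraries as log2(CPM + 1), knockout at the left and wild type at the right, with genes ordered by role and 0 marking the absence of counts. Ncl and Npm1 are seen strongly in all 8 libraries, while knockout replicate 4 lacks counts for 16 genes and is bright for Nop56, Nop58 and Noc3l.

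Myc itself was at 132, 183, 141 and 117 CPM in knockout replicates 1 to 4, against 151, 125, 52.7 and 149 CPM in wild-type replicates 1 to 4. The groups overlapped, and the low library was wild-type replicate 3. Myc averaged 143 ± 28.3 CPM in knockout and 119 ± 46.1 CPM in wild type (SD, n = 4 each), with a log2 fold change of 0.26 (SE 0.47) that was 0.018 without wild-type replicate 3. Myc lies on chromosome 15 from 61985341 to 61990361 (GRCm38). Per kilobase of its longest annotated transcript Myc stood at 61.2 CPM in knockout and 51.1 CPM in wild type, the fifth level among the 35 genes over all libraries and the sixth when only protein-coding transcripts set the length. Npm1 had the highest level per kilobase, at 227 CPM in knockout and 192 CPM in wild type, also when only protein-coding transcripts set the length. Rrp12, Cad, Polr1a, Npm3 and Utp20 had the lowest levels per kilobase, all at 1.85 CPM or less in both genotypes.

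The letters CACGTG, the canonical E-box of Myc and Max and a palindrome read alike on both strands, were sought in promoter windows from RefSeq (GRCm38.p6, 250 bases before to 50 after the gene start). Of the 35 genes 28 had a window, and 6 of the 28 (21.4%) held the E-box, beside 9.2% of the 17224 symbols of the count table with a window and 8.1% of all 27025 genes in the promoter table. Myc, Npm1, Fbl, Rrp12, Rrs1, Bop1 and Gnl2 had no window there. The 6 E-boxes are shown because this motif is the one Myc and Max are known to bind. Each is printed 5′ to 3′ along the gene's strand with up to 12 bases on either side and the E-box in capitals.
Nop2: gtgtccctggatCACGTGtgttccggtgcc
Pes1: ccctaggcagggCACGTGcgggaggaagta
Wdr43: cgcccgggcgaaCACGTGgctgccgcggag
Tsr1: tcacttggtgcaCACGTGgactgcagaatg
Utp20: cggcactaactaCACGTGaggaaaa
Mybbp1a: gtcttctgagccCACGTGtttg
The windows lie at chr6:125131811-125131840 (plus strand) for Nop2, chr11:3963965-3963994 (plus) for Pes1 and chr17:71616220-71616249 (plus) for Wdr43. Those of Tsr1, Utp20 and Mybbp1a lie at chr11:74898092-74898121 (plus), chr10:88826765-88826789 (minus) and chr11:72441355-72441376 (plus). The E-box of Nop2 starts at −60 from the gene start, and the others start at positions 3 to 41, counted from 1 at the start that the promoter table uses, which for Wdr43 lies 37 bases inside the gene's bounds. Of these 6 genes 3 had higher and 3 lower estimates in knockout, with a median log2 fold change of 0.32, and 0 were called. A match of letters is not a measured binding site, and the data hold no binding of Myc.

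Among the nucleolar scaffold proteins, Ncl encodes nucleolin, which binds nascent ribosomal RNA. Ncl was at 634, 648, 739 and 342 CPM in knockout replicates 1 to 4, against 743, 697, 944 and 706 CPM in wild-type replicates 1 to 4. Only knockout replicate 4 lay far below the rest, and the groups overlapped through knockout replicate 3. The log2 fold change was −0.39 (SE 0.26), and −0.21 without knockout replicate 4. Npm1, the nucleolar chaperone nucleophosmin, was at 307, 387, 344 and 443 CPM in knockout, against 267, 284, 358 and 342 CPM in wild type. Npm1 thus had a narrow range over all 8 libraries, with a log2 fold change of 0.24 (SE 0.25), the smallest SE among the tested members. With an offset for transcript GC content its estimate was −0.058. Nolc1, a chaperone of snoRNPs in the nucleolus, was at 17.02, 224, 125 and 0 CPM in knockout, against 115, 94.9, 102 and 98.9 CPM in wild type. Wild-type libraries were even for Nolc1, while knockout ran from no count in replicate 4 to values above every wild-type library in replicates 2 and 3, and its log2 fold change of −0.16 (SE 1.37) was 0.24 without knockout replicate 4. Npm3, a relative of Npm1, did not pass the filter and stayed at or below 5.64 CPM in every library.

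The snoRNP proteins guide the chemical marks of ribosomal RNA. Nop56, a core protein of the box C/D particles that place methyl groups, was at 364, 223, 159 and 520.4 CPM in knockout replicates 1 to 4, against 159, 175, 175 and 217 CPM in wild-type replicates 1 to 4. Knockout replicates 1, 2 and 4 lay above all wild-type libraries and replicate 3 within them (log2 fold change 0.80, SE 0.38). Nop58, its partner in the same particle, was at 67.6, 23.6, 136 and 525 CPM in knockout, against 57.6, 149.96, 120.2 and 213 CPM in wild type. Its knockout values spread more widely than its wild-type values, and the log2 fold change of 0.48 (SE 0.78) was −0.84 without knockout replicate 4. Fbl, the methyltransferase fibrillarin of that particle, was at 98.8, 114, 68.3 and 19.7 CPM in knockout, against 103, 89.4, 73.2 and 118 CPM in wild type. Fbl was low in knockout replicate 4 only, where Nop56 and Nop58 were highest, and its log2 fold change was −0.35 (SE 0.72). Dkc1, the pseudouridine synthase dyskerin of the box H/ACA particles, was at 86.2, 202, 163 and 129 CPM in knockout, against 60.9, 81.5, 107 and 63.8 CPM in wild type. Dkc1 exceeded all wild-type libraries in 3 of 4 knockout libraries, with a log2 fold change of 0.89 (SE 0.52). Nop56 and Nop58 hold 5 and 4 snoRNA genes within their bounds and Dkc1 holds 1, and Nop56 overlaps Idh3b and Dkc1 overlaps Mpp1. Whether reads of these overlapping genes were counted for them cannot be told, since the sources used here give neither the annotation nor the strand setting. Further members overlap other genes too, among them Ncl, Nop14, Gnl3, Gnl2, Tsr1 and Mybbp1a.

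**Figure D3:**
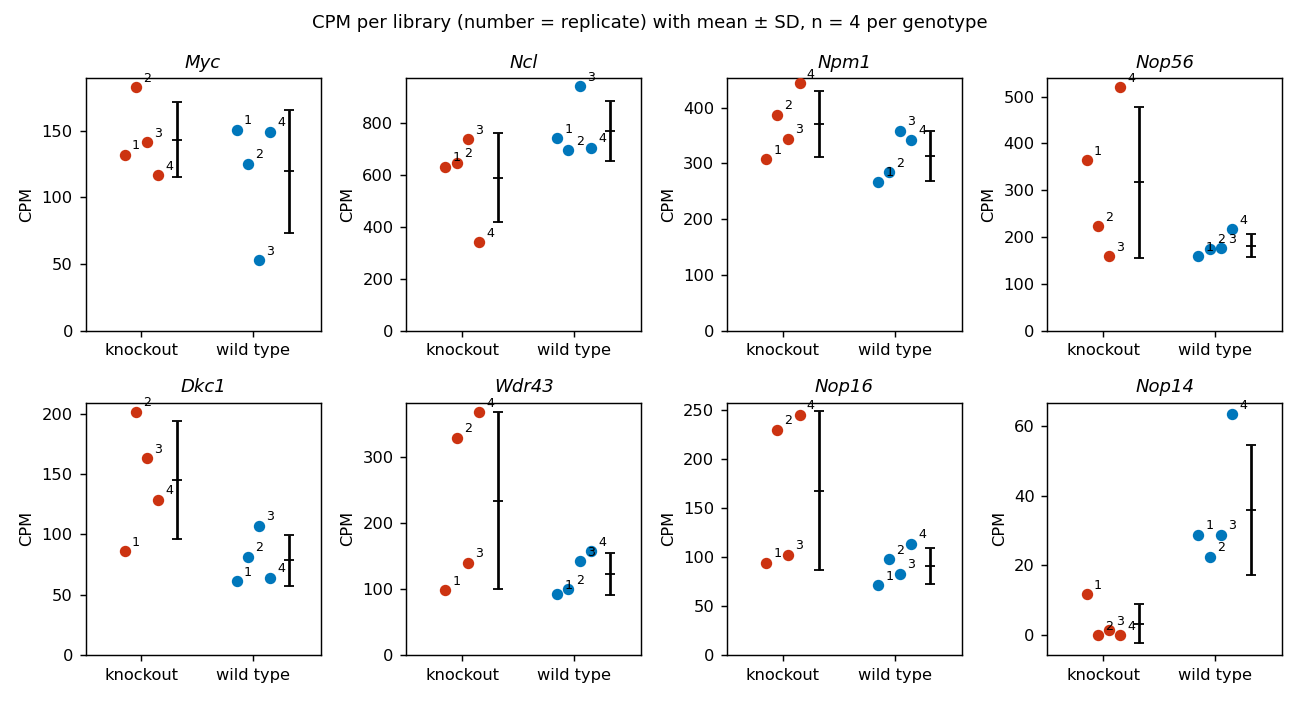
CPM of 8 genes in each knockout and wild-type library, numbered by replicate, with the mean ± SD (n = 4 each) beside the points and linear axes. Npm1, Nop56, Dkc1, Wdr43 and Nop16 have 2 or more knockout libraries above all wild-type libraries, and the groups are fully apart for Nop14 only.

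The genes of the large RNA polymerase I subunits were seen unevenly. Polr1a, the largest subunit, was at 6.49, 0.0556, 0.0797 and 0 CPM in knockout replicates 1 to 4, against 40.3, 4.73, 22.3 and 0.927 CPM in wild-type replicates 1 to 4. Polr1b, the other large subunit of the core, was at 14.6, 55.2, 23.5 and 0 CPM in knockout, against 0, 0, 10.2 and 0.0441 CPM in wild type. The estimates had opposite signs, at −3.36 (SE 2.53) for Polr1a and 3.19 (SE 2.87) for Polr1b, although the subunits act in one enzyme. That of Polr1a was −8.40 without knockout replicate 1 and that of Polr1b 10.27 without wild-type replicate 3. With single libraries left out Polr1a ran from −8.40 to −2.49 and Polr1b from 2.29 to 10.27. Their size but not their sign thus hung on single libraries. Mybbp1a, a nucleolar Myb-binding protein linked to ribosomal RNA synthesis and processing, was at 0.5897, 2.17, 48.9 and 4.18 CPM in knockout, against 46.4, 56.8, 81.7 and 4.41 CPM in wild type. Knockout replicate 3 and wild-type replicate 4 departed from their groups (log2 fold change −1.76, SE 1.70).

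Of the 8 assembly factors of the small subunit 7 were tested, and 2 had higher and 5 lower estimates in knockout (median log2 fold change −0.17). Without knockout replicate 4 the split was 5 higher and 2 lower, with a median of 0.21. The sign of this median turned also with the GC offset (0.039) and without wild-type replicate 3, wild-type replicate 4 or knockout replicate 2. It turned too without replicate 4 of both genotypes (0.61). Nop14, a factor of the small subunit processome, was the only one of the 33 tested genes whose groups did not overlap. It had 281, 1, 37 and 0 counts in knockout replicates 1 to 4, against 1038, 622, 936 and 1435 counts in wild-type replicates 1 to 4. In CPM these are 11.8, 0.0556, 1.47 and 0 in knockout, against 28.9, 22.5, 28.8 and 63.4 in wild type. The estimate was −3.42 (SE 2.19) and did not pass (edgeR adjusted p = 0.9999, DESeq2 adjusted p = 0.414). Knockout libraries lay wholly below wild-type libraries for 392 of all tested genes (4.62%) and wholly above for 129 (1.52%), so 1 lower and 0 higher of 33 members is near the background. Noc4l, the partner of Nop14, was at 75.5, 80.2, 34.6 and 0 CPM in knockout, against 64.6, 38.2, 64.8 and 28.7 CPM in wild type, and thus did not follow Nop14 in knockout replicates 1 to 3.

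Wdr43, the counterpart of yeast Utp5 that acts where transcription and early processing meet, was at 98.3, 329, 139.8 and 368 CPM in knockout replicates 1 to 4, against 91.7, 99.6, 142 and 157 CPM in wild-type replicates 1 to 4. Knockout replicates 2 and 4 lay well above every wild-type library, and replicates 1 and 3 within the wild-type range (log2 fold change 0.93, SE 0.47). Wdr43 holds 3 snoRNA genes within its bounds. Tsr1, a late assembly factor, was at 112, 0.111, 56.2 and 0 CPM in knockout, against 30.8, 23.7, 13.6 and 27.5 CPM in wild type. Tsr1 was even in wild type, while in knockout it had 2 high libraries, 1 library with 2 counts and 1 without any. Rrp9, a protein of the U3 snoRNP, ran from 0 to 65.4 CPM in knockout and from 11.9 to 47.3 CPM in wild type. Bysl, the counterpart of yeast Enp1, ran from 0 to 78.9 CPM in knockout and from 10.6 to 44.1 CPM in wild type, and it overlaps Ccnd3. Tsr1, Rrp9 and Bysl each lacked counts in knockout replicate 4. Utp20, a large processome protein, ran from 0.0421 to 28.6 CPM in knockout and from 0 to 26.8 CPM in wild type. Rrp12, whose yeast counterpart takes part in export of both subunits, did not pass the filter. It had counts in knockout replicate 3 and wild-type replicates 1 and 2 only.

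All 12 assembly factors of the large subunit were tested, and 8 had higher and 4 lower estimates in knockout (median log2 fold change 0.54). Of all tested genes 45.0% were higher in this fit. The split was 7 and 5 with scaling by library totals alone and in limma voom with quality weights. It was also 7 and 5 without knockout replicate 1 and without replicate 4 of both genotypes. In limma voom it turned to 5 higher and 7 lower (median −0.057), where 28.2% of all tested genes were higher (median −1.28). Without knockout replicate 4 it was again 8 and 4, with a median of 0.33. Nop16, a nucleolar assembly factor, was at 94.2, 230.1, 102 and 245 CPM in knockout replicates 1 to 4, against 70.96, 97.6, 83.1 and 114 CPM in wild-type replicates 1 to 4. Knockout replicates 2 and 4 lay above all wild-type libraries (log2 fold change 0.88, SE 0.49). Nop2, a methyltransferase of the large ribosomal RNA, was at 35.1, 73.6, 0 and 264 CPM in knockout, against 7.09, 20.6, 23.8 and 47.5 CPM in wild type. Its knockout values ran from 0 in replicate 3 to the highest of all libraries in replicate 4, and the log2 fold change of 1.91 (SE 1.66) was 0.54 without that library. Noc3l, a factor of early large subunit particles, was at 61.5, 0.0556, 38.2 and 417 CPM in knockout, against 16.5, 25.3, 9.17 and 0.0441 CPM in wild type. Noc3l had the highest estimate of the 33 genes, 3.34 (SE 1.84), which was 1.37 without knockout replicate 4.

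Pes1, Bop1 and Wdr12 encode the subunits of the PeBoW complex, which is needed for maturation of the large ribosomal RNA. Pes1 was at 103, 38.2, 46.9 and 154 CPM in knockout replicates 1 to 4, against 154, 9.501, 129 and 109 CPM in wild-type replicates 1 to 4. Bop1 was at 36.6, 0.0556, 14.3 and 0.0522 CPM in knockout, against 22.6, 25.4, 71.3 and 0.0883 CPM in wild type. Wdr12 was at 24.9, 35.01, 48.1 and 189 CPM in knockout, against 26.6, 57.5, 81.8 and 0 CPM in wild type. The subunits were not seen together in every library: knockout replicate 4 had the highest Wdr12 level of all libraries and a single Bop1 count, and wild-type replicate 4 had 2 Bop1 counts and no Wdr12 count beside an ample level of Pes1. The log2 fold changes were −0.23 (SE 0.84) for Pes1, −1.23 (SE 2.19) for Bop1 and 0.84 (SE 1.56) for Wdr12, the last −0.22 without knockout replicate 4. Bop1 overlaps Mroh1 and Scx, and Wdr12 overlaps Carf.

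Gnl2 and Gnl3, related nucleolar GTPases, differed in how evenly they were seen. Gnl2 was at 91.2, 139.97, 85.8 and 181 CPM in knockout replicates 1 to 4, against 50.4, 4.44, 90.6 and 122 CPM in wild-type replicates 1 to 4. Wild-type replicate 2 was low, and knockout replicates 2 and 4 lay above all wild-type libraries (log2 fold change 0.90, SE 0.84). Gnl3, known as nucleostemin, ran from 0 to 54.2 CPM in knockout and from 4.68 to 50.5 CPM in wild type. Rrp1b was at 34.2, 62.01, 39.2 and 241 CPM in knockout, against 44.2, 61.3, 41.2 and 41.6 CPM in wild type, and its log2 fold change of 0.998 (SE 0.90) was −0.074 without knockout replicate 4. The remaining factors were patchy in both genotypes. Ppan, the counterpart of yeast Ssf1, ran from 0.0421 to 119.7 CPM in knockout and from 1.33 to 72.1 CPM in wild type. Rrs1, which helps place the small ribosomal RNA of the large subunit, ran from 0 to 39.3 CPM in knockout and from 0 to 27.8 CPM in wild type. Wdr74 ran from 0 to 79.8 CPM in knockout and from 4.28 to 69.9 CPM in wild type.

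Nucleotide synthesis enzymes supply the bases for ribosomal RNA. Cad, the enzyme that opens pyrimidine synthesis, had 699, 0, 269 and 0 counts in knockout replicates 1 to 4, against 71, 145, 0 and 0 counts in wild-type replicates 1 to 4. Ppat, which commits to purine synthesis, was at 134, 0.111, 78.9 and 0 CPM in knockout, against 0.0278, 84.6, 65.3 and 0.0441 CPM in wild type. Ppat thus had at most 2 counts in 2 libraries of each genotype and 65.3 CPM or more in the other 2 of each. Gart, a purine enzyme with several activities, was at 2.44, 41.3, 61.7 and 0 CPM in knockout, against 25.5, 53.9, 73.8 and 25.9 CPM in wild type. Its wild-type values spread less than its knockout values, and the log2 fold changes were 2.47 (SE 2.89) for Cad, 0.51 (SE 2.37) for Ppat and −0.76 (SE 1.76) for Gart. Ppat overlaps Paics and Cad overlaps Atraid.

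**Figure D4:**
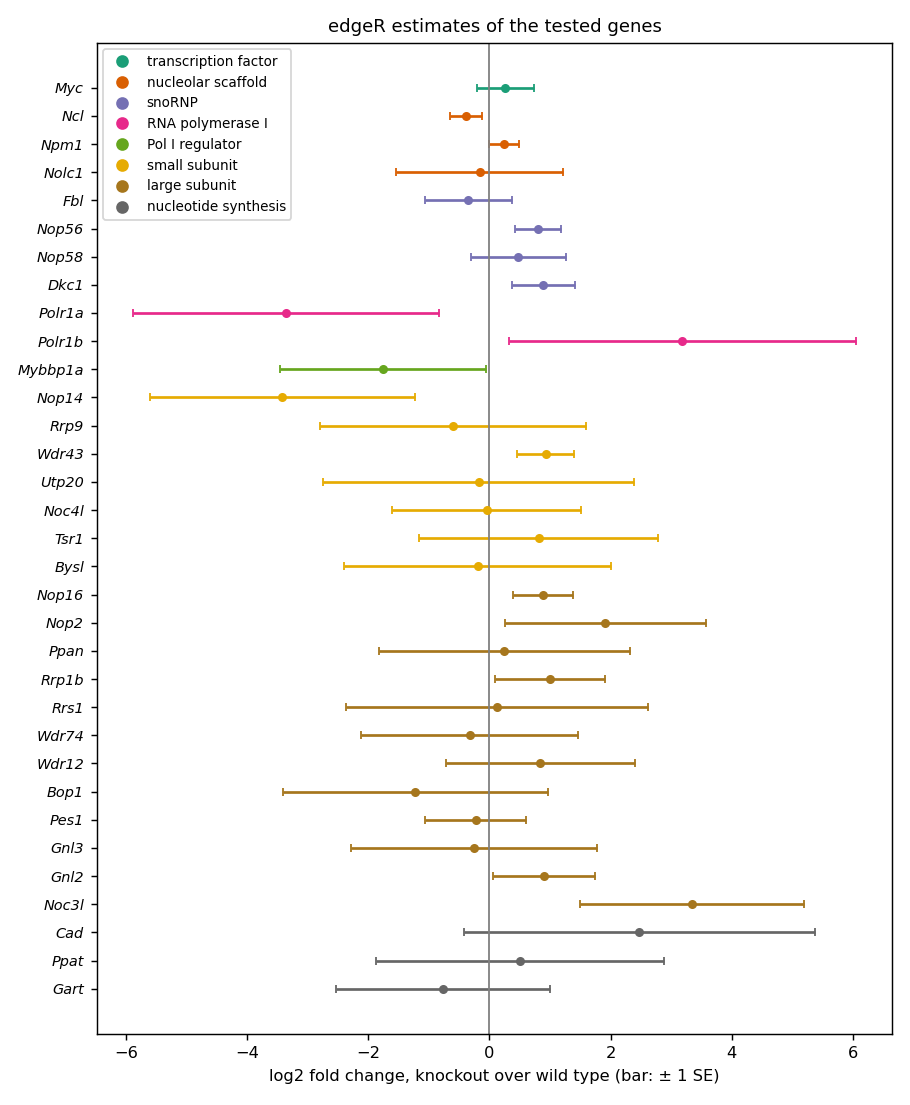
Log2 fold change of knockout over wild type with ± 1 SE for the 33 tested genes, coloured by role. Estimates run from −3.42 (Nop14) to 3.34 (Noc3l), with SEs from 0.25 (Npm1) to 2.89 (Cad), and 0 of the 33 passed the test.

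The 17 tested members with a mean under 50 CPM over all 8 libraries had SEs of 1.56 to 2.89 on the log2 scale, and the 16 at or above that level 0.25 to 1.84. A change of a few fold was thus not detectable in the scarcer genes.

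Further genes of the same processes, in lists of known members, were called in 0 cases as well by edgeR over all 8489 genes. DESeq2 called 0.572% of all its genes as higher and 3.06% as lower in knockout. Of the 46 small subunit factors it called 0 higher and 2 lower (Pwp2 and Sdad1). Of the 42 large subunit factors it called 1 higher and 0 lower (Ftsj3). It called 0 higher and 1 lower of 20 genes of RNA polymerase I and its factors (Tcof1). For nucleotide synthesis it called 0 higher and 1 lower of 23 (Adssl1). Pwp2 and Adssl1 were named after their values were seen. For Tcof1 and Ftsj3 the adjusted p was 0.364 or more, and for Sdad1 0.0747 or more, in edgeR without a filter, with the GC offset or replicate block or without replicate 4 of both genotypes, and in limma voom. Of 46 tested factors of the small subunit 17 had higher and 29 lower estimates (median log2 fold change −0.29, 1 higher and 1 lower at an unadjusted p under 0.05), and their summed CPM was 2615 ± 111 in knockout and 2571 ± 310 in wild type. Fcf1, a nuclease-like processome factor, was at 216, 282, 254 and 726 CPM in knockout replicates 1 to 4, against 189, 141, 194 and 179.6 CPM in wild-type replicates 1 to 4 (log2 fold change 1.07). Sdad1 had no counts in knockout, against 5.503, 42.7, 7.82 and 33.02 CPM in wild type (edgeR adjusted p = 0.46, DESeq2 adjusted p = 4.3e-09). Of 42 tested factors of the large subunit 28 had higher and 14 lower estimates (median 0.18, 2 higher and 0 lower at an unadjusted p under 0.05), with a summed CPM of 3812 ± 542 in knockout and 3008 ± 359 in wild type. Ftsj3, a methyltransferase of pre-ribosomal RNA, was at 143, 168, 76.6 and 184 CPM in knockout, against 44.6, 45.2, 32.3 and 20.8 CPM in wild type, and its groups were apart (edgeR adjusted p = 0.655, DESeq2 adjusted p = 0.00715). Brix1, an assembly factor, was at 416 ± 64.9 CPM in knockout and 274 ± 65.7 CPM in wild type. Eif6, which keeps the subunits from joining early, was at 298 ± 166 CPM in knockout and 300.1 ± 42.5 CPM in wild type, and the helicase gene Ddx51 was at 0.283 ± 0.502 CPM in knockout and 11.1 ± 9.49 CPM in wild type. In the snoRNP list 7 of 10 tested genes had higher and 3 lower estimates (median 0.46). In limma voom the medians of the large subunit (−0.66) and snoRNP (−0.16) lists were below 0, as was that of all tested genes (−1.28). Without knockout replicate 4 the median of the small subunit list was 0.033.

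In the list of RNA polymerase I and its factors 9 of 19 tested genes had higher and 10 lower estimates (median log2 fold change −0.083, 1 higher and 1 lower at an unadjusted p under 0.05), and with the GC offset the median was 0.29. Tcof1, which encodes treacle, a nucleolar protein needed for transcription of ribosomal RNA, was at 60.2, 37.9, 41.9 and 52.2 CPM in knockout replicates 1 to 4, against 182, 125, 131 and 156 CPM in wild-type replicates 1 to 4. Each knockout library lay below each wild-type library, at a log2 fold change of −1.63 (SE 0.56), and it passed in DESeq2 (adjusted p = 0.0065) but not in edgeR (adjusted p = 0.72). Taf1b, of the selectivity factor of that polymerase, was at 109, 164, 59.7 and 204 CPM in knockout, against 46.5, 37.9, 61.4 and 29.6 CPM in wild type, and so pointed the other way. Rrn3, its initiation factor, was at 282 ± 184 CPM in knockout and 181 ± 48.9 CPM in wild type. In the Myc network 7 of 17 tested genes had higher and 10 lower estimates (median −0.34). Mxd1, which competes with Myc for Max, was at 299, 266, 220.5 and 283 CPM in knockout, against 327, 355, 432 and 404 CPM in wild type, with the groups apart (log2 fold change −0.51, SE 0.25, adjusted p = 0.9999). Gsk3b, a kinase that marks Myc for breakdown, was at 1438 ± 877 CPM in knockout and 947 ± 189 CPM in wild type.

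Of 23 tested genes of purine and pyrimidine synthesis 10 had higher and 13 lower estimates (median log2 fold change −0.078), with a summed CPM of 2782 ± 214 in knockout and 2766 ± 647 in wild type. Pfas, a purine enzyme, was at 635 ± 318 CPM in knockout and 343 ± 181 CPM in wild type. Of 35 other tested growth targets of Myc 18 had higher and 17 lower estimates (median 0.0033, 2 higher and 0 lower at an unadjusted p under 0.05), with a median of −0.10 when scaled by library totals. Ccnd2, the cell cycle regulator cyclin D2, was at 1132, 2183, 1651 and 1636 CPM in knockout replicates 1 to 4, against 799.7, 821, 854 and 1082 CPM in wild-type replicates 1 to 4. Its groups were apart, without passing (log2 fold change 0.89, SE 0.22, adjusted p = 0.46). Srsf2, a splicing factor, was at 3271 ± 1683 CPM in knockout and 1389.5 ± 469.6 CPM in wild type (adjusted p = 0.46), while Eif5a, a translation factor, was at 1260.3 ± 346 CPM in knockout and 1622 ± 157 CPM in wild type. Of 16 tested genes of cycling cells 2 had higher and 14 lower estimates (median −0.28), and they summed to 1712 to 2061 CPM in knockout and 1520 to 3020 CPM in wild type.

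Markers of other cells moved between the libraries too. The T cell list (13 tested of 15) summed to 7924 to 10112 CPM in knockout and 10079 to 13865 CPM in wild type, with 1 higher and 12 lower estimates (median log2 fold change −0.45, 1 higher and 5 lower at an unadjusted p under 0.05), and Cd3e, Cd3d and Cd3g had counts in all 8 libraries. Cd4, which defined the sort, was at 427, 344, 402 and 1.78 CPM in knockout replicates 1 to 4, against 570.3, 373, 388 and 501 CPM in wild-type replicates 1 to 4, so knockout replicate 4 was nearly without it. The list of monocytes, macrophages and dendritic cells (8 tested of 17) summed to 1968 to 10891 CPM in knockout and 1251 to 3029 CPM in wild type, with 6 higher and 2 lower estimates (median 2.12, 4 higher and 0 lower at an unadjusted p under 0.05). DESeq2, which had an adjusted p for 14 genes of that list, called 2 higher and 1 lower in knockout (Csf1r, H2-Ab1 and Itgam). Over all its genes it called 0.572% higher and 3.06% lower. Cd74 of that list, the invariant chain of MHC class II, was at 4636, 5926, 1434 and 7352 CPM in knockout replicates 1 to 4. In wild-type replicates 1 to 4 Cd74 was at 1969, 903, 881 and 934 CPM. Lyz2 had counts in 2 knockout and 4 wild-type libraries. Adgre1 was at 0 in all 8 libraries. Csf1r had counts in 3 knockout libraries (up to 44.3 CPM) and was at 0 in all wild-type libraries. H2-Aa ran from 70.7 to 974 CPM in knockout and from 42.7 to 283 CPM in wild type. H2-Ab1 ran from 262 to 2840 CPM in knockout and from 140 to 601 CPM in wild type. The summed level was 0 to 72.3 CPM in knockout and 8.12 to 35.6 CPM in wild type for B cells, with Ms4a1 at 0 throughout. It was 67.4 to 153 CPM in knockout and 132 to 291 CPM in wild type for CD8 T and natural killer cells. There Ncr1 was at 0 throughout, and Cd8a had counts in 1 wild-type library only (7.15 CPM). Cd8b1, a chain of CD8, reached 123 CPM in knockout (3 libraries with counts) and 20.3 CPM in wild type (2 libraries). That peak of 123 CPM equals the whole sum of these markers in knockout replicate 4, the library nearly without Cd4. Whether that library held CD8 T cells was not tested. Neutrophil markers came to 0 to 35.5 CPM in knockout and 0 to 55.3 CPM in wild type. Synovial fibroblast markers summed to 39.3 to 129 CPM in knockout and 103 to 157 CPM in wild type, with Pdgfra at 0 throughout. The part of other cells, of gene detection and of knockout replicate 4 in the levels of Myc and the ribosome biogenesis genes was not tested beyond the values without that library.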

How the data were processed

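RNA of 8 libraries of CD4+ T cells sorted from digested knee joints was amplified by a low-input library kit and read on a NovaSeq sequencer, per the labels' protocols. The deposited table gives, per symbol and library, raw read counts that the authors did not normalize. HISAT2 2.1.0, featureCounts, edgeR 3.28.1 and mm10 are named, per the submitters' processing notes. Which annotation and strand setting were used, and whether duplicates were removed, is not given in the sources used here. Libraries held 18837650 to 36436923 counts.

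Computed here in R 4.3.3: filterByExpr (minimum count 10, minimum total 15), TMM scaling and edgeR 4.0.16 quasi-likelihood tests with robust dispersion, a genotype term alone and Benjamini-Hochberg adjustment over 8489 genes (threshold 0.05). SEs were derived as the estimate divided by the root of F. Alternatives were no filter, a minimum count of 50, other scalings, DESeq2 1.42.0, limma 3.58.1 voom with robust moderation, without and with quality weights, a replicate block, an offset for transcript GC content (GENCODE, 8200 tested genes) and libraries left out. Scripts were tested on simulated data. Positions and promoters came from RefSeq GRCm38.p6, in which 95.0% of symbols matched, and lengths from GENCODE transcripts. The members and lists were chosen with earlier results of these data known. The text names all 35 members, Slc7a5 and, per process list, the called genes or, with none called, genes among those with the highest CPM or the smallest p in each direction; cell markers were added as checks.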

Additional observations from a re-analysis of the deposited data

Results flagged for a closer look

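Of 80 sets of 4 library values examined (the 35 genes, Slc7a5, Slc3a2, both sums and the number of genes without counts, per genotype), 17 held a library whose gap to its nearest neighbour was too large a part of the range of the 4 by Dixon's test at the 95% level. Chance flags about 1 set in 20, and values near 0 in the other 3 libraries make the flag likelier. In knockout, replicate 4 was high for Rrp1b (241 CPM), Wdr12 (189 CPM) and Noc3l (417 CPM), and it had 16 genes without counts. Knockout replicate 3 was high for Rrp9 (65.4 CPM), Rrp12 (9.44 CPM), Utp20 (28.6 CPM), Bysl (78.9 CPM) and Mybbp1a (48.9 CPM). Knockout replicate 2 was high for Ppan (119.7 CPM), and knockout replicate 1 for Nop14 (11.8 CPM) and Polr1a (6.49 CPM). In wild type, replicate 2 was high for Npm3 (5.64 CPM) and Rrp1b (61.3 CPM), replicate 3 for Polr1b (10.2 CPM) and replicate 4 for Nop14 (63.4 CPM), and replicate 4 had 5 genes without counts.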

How the results depend on the processing

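In edgeR's quasi-likelihood test 0 of 8489 genes and 0 of the members passed, and so they did under the other filters, scalings, the GC offset and each library left out (0 to 0). DESeq2 called 387 genes, voom in limma 9 and the same with quality weights 4, and 0 of these were members. The median log2 fold change of the members (0.24) ran from −0.14 to 0.32 over all alternatives. With a library left out it ran from 0.11 (without wild-type replicate 1) to 0.29 (without wild-type replicate 4). It was taken over the 33 genes, or over 32 with a minimum count of 50. The log2 ratio of the summed CPM (0.26) ran from 0.11 to 0.45. For Slc7a5 the adjusted p was 0.364 in edgeR without a filter and 0.0183 in DESeq2. It ran from 0.437 to 0.542 with a library left out, an alternative chosen after seeing the data, as was the sum without Ncl. Of 626 member values under the alternatives 562 kept their sign and 64, of 17 genes, did not. No value of either kind passed its test. The cause was not tested. Signs turned with scaling by library totals Ppan (−0.049), in limma voom Nop58 (−0.067), Nop2 (−0.89), Ppan (−2.81), Rrs1 (−0.074), Utp20 (2.05) and Tsr1 (−3.30), in limma voom with quality weights Nop58 (−0.36), Nop2 (−3.69), Ppan (−1.85), Rrp1b (−0.18), Wdr74 (0.42), Pes1 (0.10), Utp20 (3.23) and Tsr1 (−0.026). They turned also with the replicate number as a block Nop58 (−0.14), Ppan (−2.52), Pes1 (0.093), Utp20 (1.93), Tsr1 (−3.15) and Ppat (−0.72), as well as with the GC offset Npm1 (−0.058), Noc4l (0.32) and Bysl (0.039). They turned without replicate 4 of both genotypes Fbl (0.063), Nop58 (−0.54), Nolc1 (0.22), Rrp1b (−0.13), Wdr74 (0.59), Wdr12 (−0.64), Utp20 (1.17), Noc4l (0.16) and Bysl (0.61). With single libraries left out the log2 fold changes of genes whose sign turned ran from −2.75 to 1.34 for Ppan, −0.70 to 0.053 for Pes1, −0.44 to 0.35 for Noc4l, −1.55 to 0.997 for Rrs1, −1.33 to 0.35 for Gnl3, −1.98 to 0.95 for Utp20, −1.57 to 0.20 for Wdr74, −2.97 to 0.22 for Bysl, −1.13 to 0.24 for Nolc1, −0.35 to 1.21 for Tsr1, −0.51 to 1.27 for Ppat, −0.84 to 0.82 for Nop58, −0.074 to 1.28 for Rrp1b and −0.22 to 1.41 for Wdr12. Replicates of the same number did not deviate together: the correlations of their deviations from the group means were −0.022, 0.018, 0.021 and 0.053 over tested genes. Not every library correlated best with its own number. With the replicate number as a block 0 genes passed. The member median was −0.14 there and that of all tested genes −0.68, and the cause of these lower medians was not tested. At these depths SEs of up to 2.89 on the log2 scale were left for members without counts in some libraries.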
